A study of Mus musculus with 6 samples.

Results

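Genes of lymphoid priming and antigen receptor recombination were followed in hematopoietic progenitors of mice with a conditional deletion of the histone methyltransferase gene Setd1b. They were 10 genes, chosen by name as genes that lymphoid-primed progenitors express and with earlier results of these data known. All 10, out of 45706 genes counted, passed the filter on low counts that left 15184 genes to test. Dntt encodes terminal deoxynucleotidyl transferase. Rag1 and Rag2 encode the recombinase, Il7r, Ccr9 and Notch1 encode receptors, Satb1 encodes a chromatin organizer, Blnk and Lsp1 encode signalling proteins of the cytoplasm, and Cd52 encodes a short surface glycoprotein. The question put to them was whether Dntt changed to the same extent as the recombinase and receptor genes when cKO was compared with Ctrl.

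RNA-seq was performed on LSK cells, the Lin- Sca-1+ c-Kit+ fraction of bone marrow that holds hematopoietic stem cells and multipotent progenitors. They were sorted from 3 Ctrl and 3 cKO mice, with 1 library per mouse and no pooling. Ctrl mice were heterozygous (Setd1b FD/+; RC/+) and cKO mice homozygous (Setd1b FD/FD; RC/+) for a conditional allele from which Cre excises an exon and so shifts the reading frame. All 6 were C57BL/6 males, 16 weeks old except for 1 cKO mouse of 17 weeks (replicate 3). Both groups carried 1 copy of RC, the Rosa26-Cre-ERT2 transgene, whose Cre is active in almost all tissues once tamoxifen is given, so that deletion was not limited to blood cells and, by design, Ctrl mice also lose 1 functional allele. Both groups received 4.5 mg tamoxifen per day by gavage for 4 days and, after a pause of 3 days, for 2 more days, and were killed 3 days after the last dose. This schedule is that of the sample labels, and the methods of the study give another number of doses. The mice were littermates per the study, but no source used here says which mice shared a litter. A wild-type group was not analysed here.

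Total counts lay between 13003573 and 21277519 reads per library, and values are given as CPM, the count of a gene relative to the library total after TMM scaling. Setd1b had 221, 194 and 223 CPM in Ctrl replicates 1 to 3 and 272, 288 and 314 CPM in cKO replicates 1 to 3. It was called higher in cKO (log2 fold change 0.46, adjusted p = 0.0015, edgeR). This count covers every exon, of which only 1 is excised, so it does not check the excision. The study reported, at later times after tamoxifen, complete recombination by PCR in sorted stem and progenitor cells. It also reported loss of Setd1b mRNA in multipotent progenitors and of the protein in liver of cKO mice. Ctrl and cKO stand throughout for the libraries so labelled. Of the genes behind the sort, Kit and Ly6a (Sca-1) differed by -0.04 and -0.23 on the log2 scale, neither past the test, and Cd34, which subdivides LSK cells, by 0.01. Cd3e, Cd8a and Ly6g, which encode or belong to targets of the lineage antibodies, had at most 0.14 CPM in any library, whereas Itgam, which encodes the target CD11b, had 35.8 to 58.3 CPM, Trbc1 up to 6.66 CPM and Cd4 up to 3.72 CPM. The library numbers in the table's headings fall into 2 series of 3, the first with Ctrl replicate 1 and cKO replicates 1 and 2 and the second with the other 3 libraries, and differences were also taken within each series.

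The earliest lymphoid commitment takes place within LSK cells. Multipotent progenitors that express FLT3 begin to transcribe lymphoid genes at low level, Dntt and the recombinase among them, before they respond to IL-7 and before they commit to the B or T lineage. The recombinase cuts antigen receptor genes at their recombination signals, the general end joining machinery reseals them, and terminal deoxynucleotidyl transferase adds bases without a template at the junctions. IL-7 signals carry B and T progenitors through expansion, Notch1 directs the T cell choice, and CCR9 guides progenitors to the thymus.

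Of the 8 genes with an entry in the promoter table of RefSeq (GRCm38.p6), 4 are shown, namely those of Dntt, of Rag1 and of Il7r, which stand for the transferase, the recombinase and the receptors, and that of Blnk, the nearest gene to Dntt on the chromosome. Lsp1 and Cd52 had no entry. Each stretch is the 250 bases just before the start annotated by RefSeq, read 5′ to 3′ on the strand of the gene, with matches to the motifs searched in capitals. The 4 motifs, searched on both strands, were the E box CANNTG, the Ikaros core TGGGAA, the RUNX core TGTGGT and the TATA box TATAAA.
Dntt, plus strand, chr19:41029025-41029274: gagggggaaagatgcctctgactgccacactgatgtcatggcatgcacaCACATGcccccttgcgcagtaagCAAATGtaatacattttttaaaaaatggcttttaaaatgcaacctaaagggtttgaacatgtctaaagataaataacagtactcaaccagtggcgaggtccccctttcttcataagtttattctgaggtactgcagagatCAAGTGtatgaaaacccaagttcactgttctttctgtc
Rag1, minus strand, chr2:101649533-101649782: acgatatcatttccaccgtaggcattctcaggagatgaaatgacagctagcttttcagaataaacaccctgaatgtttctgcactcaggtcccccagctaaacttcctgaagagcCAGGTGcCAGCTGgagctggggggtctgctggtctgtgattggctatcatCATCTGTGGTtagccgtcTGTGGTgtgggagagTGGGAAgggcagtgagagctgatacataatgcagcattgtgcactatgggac
Il7r, minus strand, chr15:9529877-9530126: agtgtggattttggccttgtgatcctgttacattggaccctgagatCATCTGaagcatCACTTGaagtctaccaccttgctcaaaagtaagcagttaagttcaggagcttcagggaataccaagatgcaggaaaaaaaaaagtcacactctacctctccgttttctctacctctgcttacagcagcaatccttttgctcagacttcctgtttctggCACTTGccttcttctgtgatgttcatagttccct
Blnk, minus strand, chr19:40994222-40994471: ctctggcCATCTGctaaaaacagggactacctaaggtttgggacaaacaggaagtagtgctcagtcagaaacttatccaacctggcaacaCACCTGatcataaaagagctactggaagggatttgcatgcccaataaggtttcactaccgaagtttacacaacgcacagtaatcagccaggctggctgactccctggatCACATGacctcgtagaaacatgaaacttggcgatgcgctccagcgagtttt
Capitals in the Dntt, Il7r and Blnk promoters mark 3 E boxes each. In the Rag1 promoter they mark 3 E boxes, 1 Ikaros core that starts at -52 from the gene start and 2 RUNX cores that start at -81 and -67, the first of which overlaps the E box at -85. E boxes were present in at least 1 window of 7 of the 8 genes and in 66.2% of all 32851 promoter windows of this length. The Ikaros core was in 21.6%, the RUNX core in 14.0% and the TATA box in 12.4% of all windows, and the TATA letters were in none of those of the 8 genes. A match of letters is a description and does not show that a factor binds there.

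Dntt was lost almost completely from the cKO libraries. The gene (ENSMUSG00000025014, chr19:41029275-41059523, plus strand) had 271, 549 and 219 CPM in Ctrl replicates 1, 2 and 3 and 3.62, 5.97 and 8.42 CPM in cKO replicates 1, 2 and 3. Every Ctrl library was thus far above every cKO library, although the Ctrl libraries also differed among themselves, replicate 2 being at 2.02 times the level of replicate 1. The mean fell from 347 ± 178 CPM to 6.00 ± 2.40 CPM (SD, n = 3 each), which was 57.7-fold lower. The fitted log2 fold change was -5.86 (SE 0.334, 95% confidence interval -6.57 to -5.15, adjusted p = 4.9e-08 by edgeR's quasi-likelihood test). Only 2 of the 15184 genes tested had a lower fold change, and only 5 had a smaller p-value. Within the 2 library series the difference was -5.83 and -5.34. In these bulk libraries, fewer Dntt-expressing cells and less Dntt RNA per cell cannot be told apart.

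Among the 10 genes, 3 were past the test and lower in cKO, namely Dntt, Il7r and Cd52, none was past it and higher, and 7 were not called. The study had already named Dntt and Il7r among the genes most strongly lowered in these samples, so their calls are not new. Over all genes tested, 7.67% were called, 3.79% lower and 3.88% higher. At an unadjusted p under 0.05 the count was 7 of 10, against 22.9% of all genes tested. The 3 cKO values lay entirely outside the 3 Ctrl values for 4 genes, namely below them for Dntt, Il7r and Cd52 and above them for Blnk, against 27.3% of all genes tested. The median log2 fold change was -0.32 for the 10 genes and 0.00 for all genes tested. All 10 differences had the same sign in both library series, each of which sets 1 mouse against 2. The share of all genes for which this holds was not counted. Some of these differences were small, such as -0.35 and -0.10 for Rag1 and 0.08 and 0.19 for Notch1. The lower calls were reduced to 1, Dntt, without Ctrl replicate 2 or without cKO replicate 2, and the genes with separate groups increased to 7 without Ctrl replicate 3, a setting in which 35.6% of all genes tested had separate groups.

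**Figure D1:**
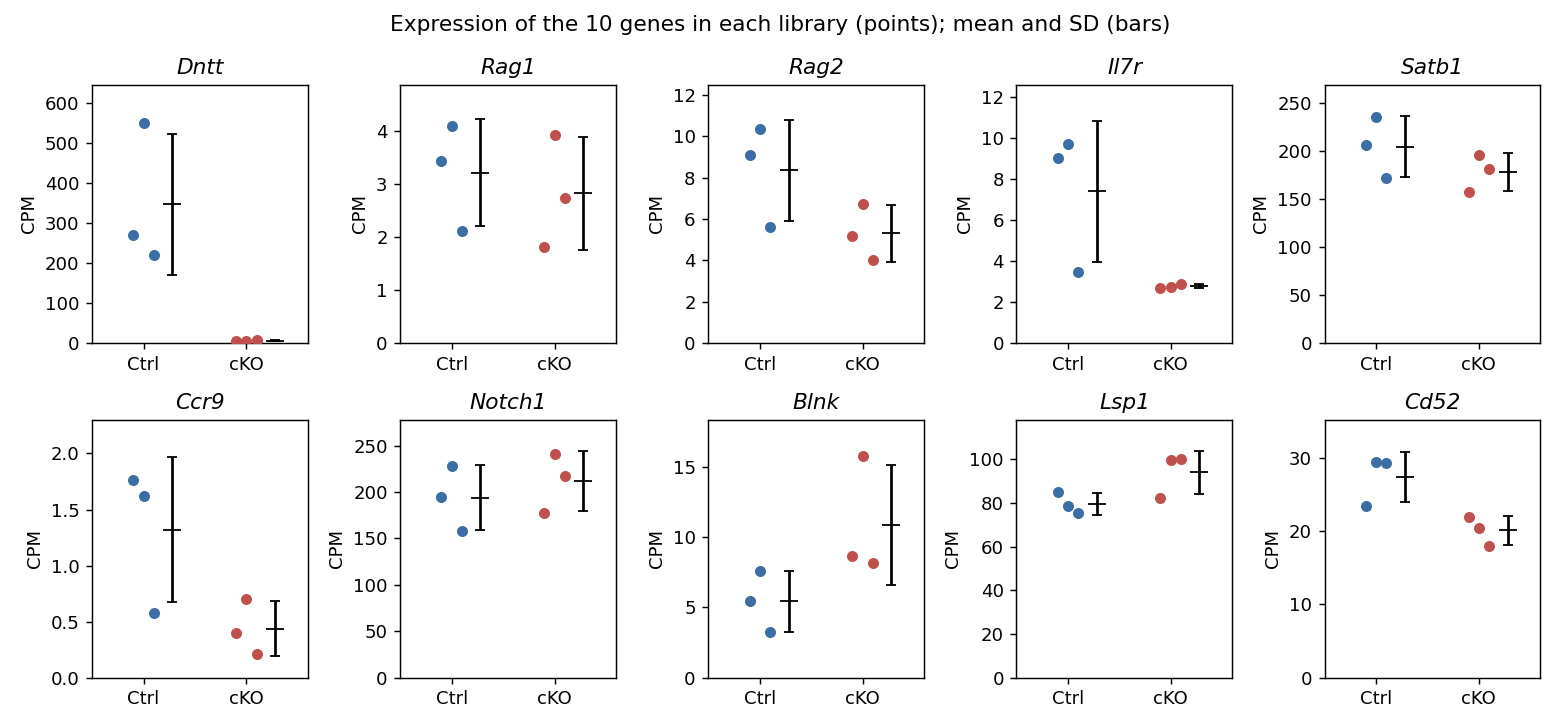
Expression in CPM (y axis, from 0 in each panel) of the 10 genes in the Ctrl and cKO libraries (x axis), with 1 point per mouse and the mean and SD of 3 mice as bars. The Dntt points are at 219 to 549 CPM in Ctrl and 3.62 to 8.42 CPM in cKO, whereas the Rag1, Satb1 and Notch1 points of both groups cover overlapping ranges.

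The recombinase genes did not show a change of this size. Rag1, the catalytic subunit (ENSMUSG00000061311, chr2:101638282-101649501, minus strand), had 3.44, 4.10 and 2.11 CPM in Ctrl and 1.81, 3.94 and 2.74 CPM in cKO, replicates 1 to 3 in each. The groups overlapped, and the difference of -0.19 (SE 0.338, interval -0.91 to 0.53, adjusted p = 0.79 by edgeR) changed sign when Ctrl replicate 2 or cKO replicate 1 was left out. These values rest on 27 to 86 reads per library. Rag1 also lies within the span of B230118H07Rik on the same strand, sharing 80 of its 6608 exon bases, so that unspliced reads of that gene can be counted as Rag1. B230118H07Rik had 309 to 482 reads per library and differed by 0.09 (adjusted p = 0.68, edgeR).

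Rag2, the partner that Rag1 needs to cut, is convergent with it at a gap of 5.75 kb (ENSMUSG00000032864, chr2:101624718-101632529, plus strand). It had 9.11, 10.3 and 5.63 CPM in Ctrl replicates 1 to 3 and 5.16, 6.73 and 4.00 CPM in cKO replicates 1 to 3. Only Ctrl replicate 3 reached into the cKO range. Its difference of -0.66 (SE 0.250, interval -1.19 to -0.13) did not pass the test (adjusted p = 0.13, edgeR), and passed it with no filter on low counts (adjusted p = 0.037). Both recombinase genes were thus measured at a low level, and their intervals do not reach the fall of Dntt.

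Of 13 other genes of V(D)J recombination and end joining, all tested, none was lower and 1 was higher, a share close to the 7.67% of all genes tested, and their median log2 fold change was 0.09. With Dntt and the recombinase genes counted in, the list had 1 lower gene, Dntt. It had 2 with the series as a covariate, with DESeq2 and without Ctrl replicate 3, where neither recombinase gene was called. With no filter on low counts it also had 2, Dntt and Rag2. The one higher was Xrcc5, the Ku80 subunit that holds broken DNA ends, with 36.0, 32.8 and 33.5 CPM in Ctrl and 44.8, 47.8 and 41.7 CPM in cKO (0.39, adjusted p = 0.015 by edgeR, lost without Ctrl replicate 2, Ctrl replicate 3 or cKO replicate 2). Its partner Xrcc6 (Ku70) differed by -0.22 and did not pass the test (adjusted p = 0.056, edgeR). Polm, the polymerase of end joining that is closest to Dntt in sequence, had 3.06, 2.62 and 2.62 CPM in Ctrl and 2.08, 2.73 and 2.88 CPM in cKO. Its groups overlapped (-0.11, adjusted p = 0.87, edgeR). Poll, the other polymerase of this family in end joining, differed by -0.27 (adjusted p = 0.14, edgeR).

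Of the receptors, Il7r, the α chain of the IL-7 receptor, was lower in cKO. The gene (ENSMUSG00000003882, chr15:9506161-9529876, minus strand) had 9.03, 9.72 and 3.46 CPM in Ctrl replicates 1, 2 and 3 and 2.68, 2.73 and 2.88 CPM in cKO replicates 1, 2 and 3. The 3 cKO libraries were nearly alike, while Ctrl replicate 3 was close to them and the other 2 Ctrl libraries were far above. The mean fell from 7.40 ± 3.44 CPM to 2.76 ± 0.10 CPM (SD, n = 3 each), 2.68-fold lower. On the log2 scale the fitted difference was -1.42 (SE 0.325, interval -2.12 to -0.73, adjusted p = 0.014 by edgeR). Without Ctrl replicate 2 (-1.16, adjusted p = 0.060) or cKO replicate 2 (-1.42, adjusted p = 0.064), both by edgeR, the call was lost. In the library series the differences were -1.69 and -0.98.

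Ccr9, the chemokine receptor of thymus homing (ENSMUSG00000029530, chr9:123678439-123783457, plus strand), was near the limit of detection. It had 23, 34 and 9 reads in Ctrl replicates 1 to 3 and 6, 11 and 3 reads in cKO replicates 1 to 3, which were 1.76, 1.62 and 0.58 CPM and 0.40, 0.70 and 0.21 CPM. Only cKO replicate 2 was above the lowest Ctrl library. The fitted difference of -1.56 (SE 0.575, interval -2.79 to -0.33) was not past the test (adjusted p = 0.12, edgeR).

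Notch1 (ENSMUSG00000026923, chr2:26457903-26516663, minus strand) was measured deeply, with 2474 to 4792 reads per library. It had 195, 228 and 158 CPM in Ctrl and 177, 241 and 217 CPM in cKO, replicates 1 to 3 in each. The ranges overlapped widely, and the difference was 0.13 (interval -0.13 to 0.38, adjusted p = 0.58 by edgeR), which turned to -0.01 without Ctrl replicate 3. Notch1 was thus measured with an interval within 0.4 of 0 on the log2 scale, far narrower than that of Rag1 or Ccr9.

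**Figure D2:**
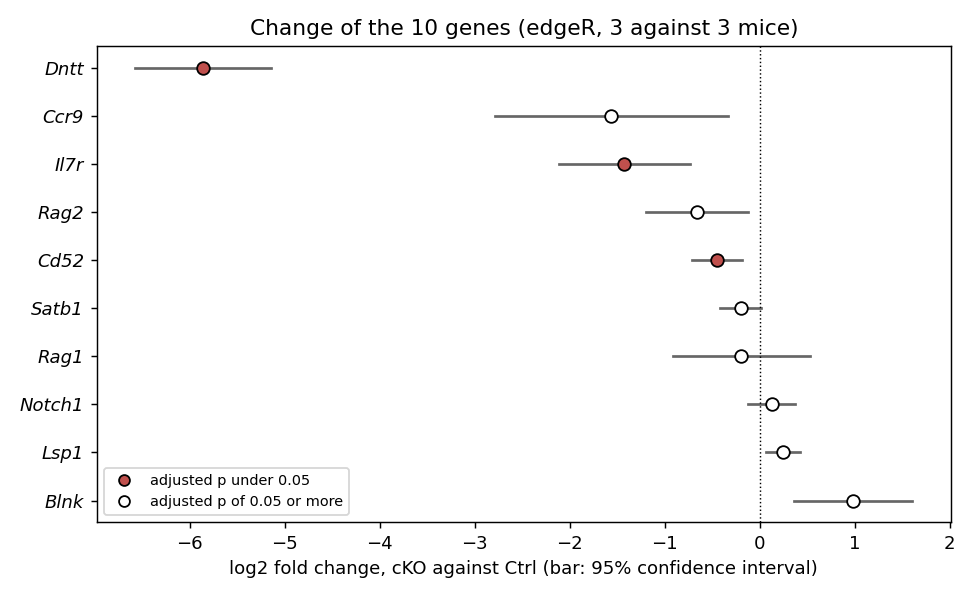
Log2 fold change of cKO against Ctrl (x axis) of the 10 genes (y axis, in order of the change), each with its 95% confidence interval as a bar and filled where the adjusted p of edgeR was under 0.05. Dntt is at -5.86, apart from the other 9 genes, which lie between -1.56 and 0.98.

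Whether Dntt changed by another factor than each recombinase and receptor gene was tested with the ratio of the 2 read counts within each library, which needs no scaling between libraries. Dntt had 78.8, 134 and 104 reads for each Rag1 read in Ctrl replicates 1 to 3 and 2.00, 1.52 and 3.08 in cKO replicates 1 to 3. This ratio was 48.8-fold lower in cKO (log2 difference -5.61). For each Rag2 read there were 29.8, 53.1 and 38.9 Dntt reads in Ctrl and 0.70, 0.89 and 2.11 in cKO (-5.17), so that in 2 of the 3 cKO libraries Dntt reads were fewer than Rag2 reads. Against Il7r, itself lower in cKO, the ratio went from 30.1, 56.5 and 63.4 in Ctrl to 1.35, 2.19 and 2.93 in cKO, and was 23.2-fold lower (-4.54). Against Ccr9, with its few reads, it was 154, 339 and 380 in Ctrl and 9.0, 8.55 and 40.0 in cKO (-4.30, 19.7-fold lower). Against Notch1 it was 1.39, 2.41 and 1.38 in Ctrl and 0.020, 0.025 and 0.039 in cKO (-5.94, 61.4-fold lower).

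All 5 ratios were lower in each cKO library than in each Ctrl library. An exact two-sided permutation test over the 6 libraries gave p = 0.1 for each of the 5, the smallest value that 3 against 3 mice allow, and 0.1 after adjustment over the 5 comparisons. This design therefore cannot reach 0.05. The smallest difference within a library series, -3.33 for Ccr9 in the second series, was still a lower ratio in cKO.

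**Figure D3:**
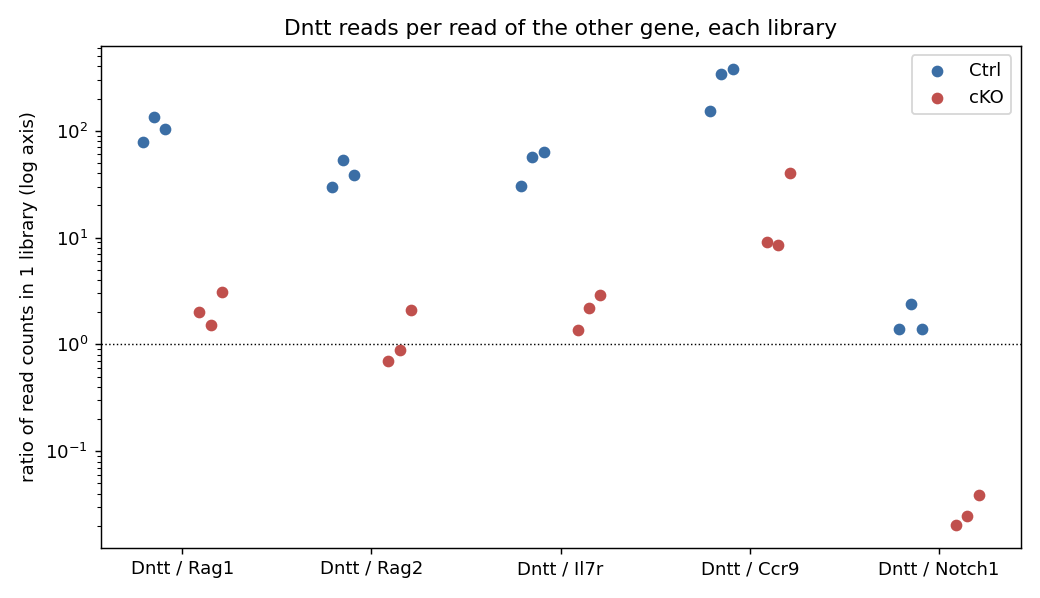
Reads of Dntt per read of Rag1, Rag2, Il7r, Ccr9 or Notch1 in the same library (y axis, log scale) for the 3 Ctrl and 3 cKO libraries (1 point each), with the dotted line at equal counts. For Rag1 the ratio is 78.8 to 134 in Ctrl and 1.52 to 3.08 in cKO, and in none of the 5 pairs do the groups overlap.

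Satb1, a chromatin organizer that acts in lymphoid progenitors and thymocytes (ENSMUSG00000023927, chr17:51736187-51833290, minus strand), was among the abundant genes. It had 206, 235 and 171 CPM in Ctrl replicates 1 to 3 and 157, 196 and 181 CPM in cKO replicates 1 to 3. The groups overlapped, and the difference of -0.20 (SE 0.102, interval -0.41 to 0.02) was not past the test (adjusted p = 0.27, edgeR).

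Blnk, the adaptor that couples the kinase Syk to the B cell receptor, was the member with the largest fitted increase. It lies on the other side of the Dntt promoter, transcribed away from it (ENSMUSG00000061132, chr19:40928927-40994535, minus strand). Blnk had 5.43, 7.58 and 3.26 CPM in Ctrl replicates 1 to 3 and 8.64, 15.8 and 8.14 CPM in cKO replicates 1 to 3. All 3 cKO libraries were above all 3 Ctrl libraries, with cKO replicate 2 the highest. The mean was 5.43 ± 2.16 CPM in Ctrl and 10.8 ± 4.26 CPM in cKO (SD, n = 3 each), 2.00-fold higher. The log2 fold change of 0.98 (SE 0.291, interval 0.36 to 1.6) just missed the threshold (adjusted p = 0.052, edgeR). It passed in 3 of the 10 other settings, with DESeq2 (0.99, adjusted p = 0.020), with no filter on low counts (0.98, adjusted p = 4.7e-05) and without Ctrl replicate 2 (1.33, adjusted p = 0.014), the last 2 with edgeR. The difference was smaller without cKO replicate 2 (0.62, adjusted p = 0.30) and without Ctrl replicate 3 (0.72, adjusted p = 0.19), both by edgeR. With the series as a covariate it was 0.85 (adjusted p = 0.12, edgeR).

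Lsp1, an actin-binding protein of leukocytes (ENSMUSG00000018819, chr7:142460809-142494867, plus strand), had 84.9, 78.5 and 75.4 CPM in Ctrl and 82.5, 99.6 and 100 CPM in cKO, replicates 1 to 3 in each. Only cKO replicate 1 lay within the Ctrl range. Its difference of 0.24 (SE 0.084, interval 0.06 to 0.42) was not past the test (adjusted p = 0.098, edgeR), but was past it without cKO replicate 1 (0.33, adjusted p = 0.035) and with no filter on low counts (0.24, adjusted p = 0.046).

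Cd52, a lipid-anchored glycoprotein of lymphocytes and other leukocytes (ENSMUSG00000000682, chr4:134082448-134095082, minus strand), had 23.4, 29.5 and 29.2 CPM in Ctrl replicates 1 to 3 and 21.9, 20.5 and 18.0 CPM in cKO replicates 1 to 3. The groups did not overlap, but the lowest Ctrl and the highest cKO library were close. The mean fell from 27.4 ± 3.43 CPM to 20.1 ± 1.96 CPM (SD, n = 3 each). On the log2 scale this was -0.45 (SE 0.123, interval -0.71 to -0.18, adjusted p = 0.039 by edgeR). The difference was -0.14 in the first and -0.70 in the second library series, and with the series as a covariate the call was lost (-0.42, adjusted p = 0.074, edgeR). It was also lost without any 1 of Ctrl replicates 2 and 3 and cKO replicates 2 and 3 (adjusted p = 0.11 to 0.14, edgeR).

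Between genes, levels were compared per kilobase of exon. This length sums all annotated exons of a gene, such as 19.0 kb for Satb1 and 5.17 kb for Lsp1, and can exceed that of 1 transcript. The order between genes depends on it. In Ctrl, Dntt stood first at 163 ± 83.5 CPM per kilobase (SD, n = 3), above Cd52 at 23.1, with no overlap between their libraries. Lsp1 (15.4), Notch1 (13.6) and Satb1 (10.7) followed, with each overlapping the next in range. Below them came Rag2 (2.44), Il7r (2.31), Blnk (0.91), Rag1 (0.49) and Ccr9 (0.28 CPM per kilobase), where each overlapped the next but Il7r lay wholly above Rag1. In cKO, Dntt had moved from the first place to the fifth, at 2.82 ± 1.13 CPM per kilobase, where it overlapped Blnk (1.81 CPM per kilobase). The 4 genes above it were Lsp1 (18.2), Cd52 (17.0), Notch1 (14.9) and Satb1 (9.36 CPM per kilobase).

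Among the 14290 tested genes with a mean of at least 1 CPM, those nearest to Dntt were sought, as a description. The measure was the Euclidean distance over the 6 libraries between log2 CPM values centred for each gene. These values were not scaled, so the distance rests mainly on the size of the difference between the groups. It does not show that genes vary alike within a group. In Ctrl, for instance, Car1 was highest in replicate 1 and Dntt in replicate 2. The nearest was Car1, a carbonic anhydrase of early erythroid progenitors (distance 1.54), with 73.9, 47.3 and 53.2 CPM in Ctrl and 0.80, 1.46 and 0.98 CPM in cKO. The next were Tcrg-C1 (2.69), a constant segment of the T cell receptor γ locus, Gzmb (2.98), a cytotoxic granule protease, Ms4a2 (3.08), the β chain of the IgE receptor of mast cells and basophils, and Sphk1 (3.18), a sphingosine kinase. They are thus genes of several blood lineages. Il7r came 112th (5.67) and Rag2 403rd (6.44), whereas Notch1 was 9036th and Blnk, with its opposite sign, 14073rd.

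On chromosome 19 no tested neighbour of Dntt had a fitted change below -0.26. Blnk and Dntt are transcribed in opposite directions from starts 34.7 kb apart, with no other gene between them. Of the other 18 genes that start within 500 kb of the Dntt start, 10 were tested, with log2 fold changes of -0.26 to 0.98 and a median of 0.11. Over all genes tested, 3.79% were called lower and 3.88% higher. Of the 10 tested neighbours, 1 was lower, Aldh18a1, an enzyme of proline synthesis (-0.26, adjusted p = 0.039 by edgeR). The 3 that were higher were Entpd1, which encodes the ectonucleotidase CD39 (0.74, adjusted p = 0.0023), the cyclin gene Ccnj (0.44, adjusted p = 0.046) and the zinc finger gene Zfp518a (0.38, adjusted p = 0.022), all by edgeR. Entpd1 was called in all 10 other settings. Aldh18a1 was lost with the series as a covariate and without Ctrl replicate 2 or 3 or any 1 cKO replicate, Ccnj with the series as a covariate and without Ctrl replicate 1 or 3 or cKO replicate 1 or 2, and Zfp518a without Ctrl replicate 2 or 3 or any 1 cKO replicate. Past the other end of Dntt, Opalin had no read in any library, and Tm9sf3 at 235 kb and Pik3ap1 at 356 kb differed by less than 0.01. The neighbours were chosen by position, and those named after their values had been seen.

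**Figure D4:**
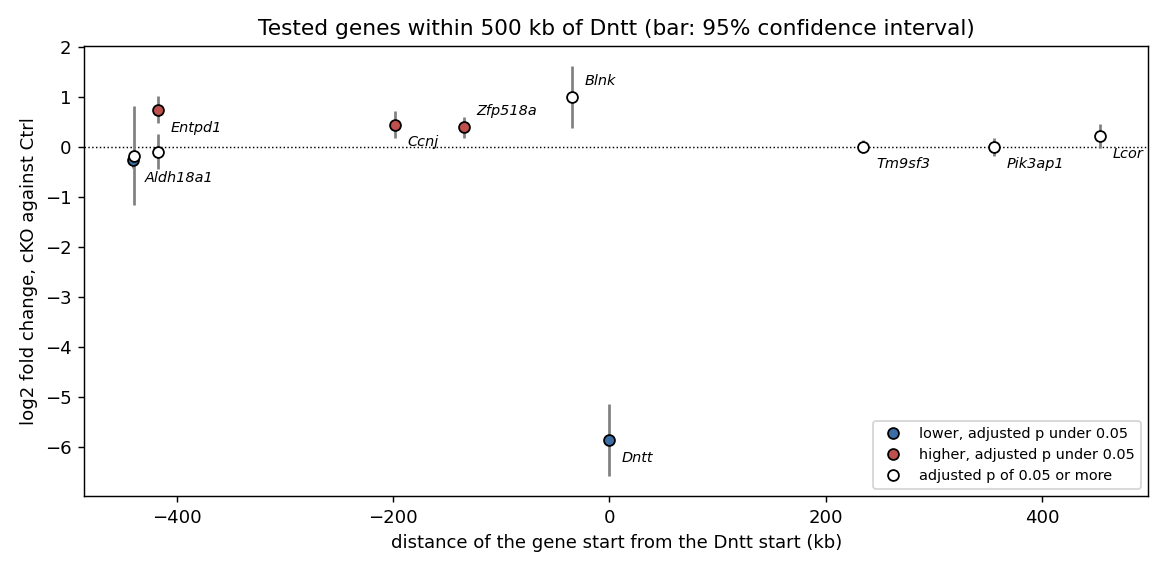
Log2 fold change of cKO against Ctrl with its 95% confidence interval (y axis) for each tested gene within 500 kb of Dntt, against the distance of its start from the Dntt start in kb (x axis), with points filled where the adjusted p of edgeR was under 0.05. Dntt is at -5.86 and Blnk, at -34.7 kb, at 0.98, and the other 9 tested genes lie between -0.26 and 0.74.

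The pathways around these genes were read from 7 lists, of recombination, IL-7 and FLT3 signalling, Notch signalling, the pre-B cell receptor, homing, transcription factors and lymphoid-primed progenitor genes. Beside the 10 genes they held 93 others, of which 81 were tested, 11 were lower and 4 higher in cKO. This is 18.5% called, 13.6% lower and 4.94% higher, beside 7.67%, 3.79% and 3.88% of all genes tested, with a median log2 fold change of -0.06. The lists were chosen with earlier results of these data known, among them the lower Ighm that the study reported. These shares thus describe the lists and do not measure an excess. The lower count was 7 without cKO replicate 2. The higher count was 0 without Ctrl replicate 3, 1 without cKO replicate 2, and 2 without Ctrl replicate 2, cKO replicate 1 or cKO replicate 3.

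In IL-7 and FLT3 signalling (12 genes, all tested, 2 lower and 1 higher, median 0.07), the survival gene Bcl2 fell from 215, 244 and 197 CPM in Ctrl to 118, 130 and 129 CPM in cKO (-0.80, adjusted p = 1.9e-05 by edgeR). It was called in all 10 other settings. Jak3, the kinase bound to the common γ chain, was higher (0.30, adjusted p = 0.022 by edgeR, lost without Ctrl replicate 3, cKO replicate 1 or cKO replicate 3), and the common γ chain Il2rg differed by 0.29 without passing the test (adjusted p = 0.058, edgeR). Flt3, the receptor that marks lymphoid-primed multipotent progenitors, had 275, 280 and 192 CPM in Ctrl and 177, 221 and 203 CPM in cKO. Its groups overlapped (-0.31, adjusted p = 0.12, edgeR).

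In the Notch pathway 15 of 17 genes were tested, 2 were lower and none was higher, with a median of 0.00. Adam17, a protease that can cleave Notch receptors, was lower (log2 fold change -0.34, adjusted p = 0.0073, edgeR). Nrarp, a target gene that feeds back on Notch signalling, had 1.76, 2.53 and 2.24 CPM in Ctrl and 0.67, 0.89 and 0.98 CPM in cKO (-1.36, adjusted p = 0.043 by edgeR). Its call held in 3 of 10 other settings. It was lost with the series as a covariate, with DESeq2 and without Ctrl replicate 2 or 3 or any 1 cKO replicate. Adam10, the main protease of ligand-activated Notch, was not past the test (-0.20, adjusted p = 0.076, edgeR).

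Of 15 genes of the pre-B cell receptor and its adaptors, 10 were tested, 1 was lower and none was higher, with a median of 0.08. The lower one was Vpreb1, a chain of the surrogate light chain, at 1.91, 1.43 and 1.02 CPM in Ctrl and 0.34, 0.25 and 0.49 CPM in cKO (-1.99, adjusted p = 0.028 by edgeR). This call was lost without Ctrl replicate 1 or 2 or any 1 cKO replicate. Syk, the kinase upstream of Blnk, and Plcg2, the phospholipase that Blnk recruits, differed by 0.21 and 0.17 without passing the test (adjusted p = 0.059 and 0.12, edgeR).

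Among 10 homing and adhesion genes, of which 9 were tested with a median of -0.18, 2 were lower and none was higher. Of these, Selplg, the P-selectin ligand used for entry to the thymus, had 144, 162 and 142 CPM in Ctrl and 125, 117 and 114 CPM in cKO (-0.33, adjusted p = 0.0087 by edgeR, lost without cKO replicate 2). Cd44 differed by -0.23 (adjusted p = 0.060, edgeR).

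Of 18 transcription and chromatin factors, 15 were tested with a median of -0.14, 2 were lower and none was higher. Irf8, a factor of dendritic cell, monocyte and B cell development, fell from 112, 102 and 90.4 CPM to 67.1, 63.6 and 46.8 CPM (-0.78, adjusted p = 0.00076, edgeR). Tcf7, a factor of early T cells, had 36.9, 24.1 and 14.5 CPM in Ctrl and 10.1, 15.6 and 13.2 CPM in cKO (-0.95, adjusted p = 0.031 by edgeR). Its groups overlapped at Ctrl replicate 3, and the call was lost with DESeq2 and without Ctrl replicate 1 or any 1 cKO replicate. Bcl11b, another T lineage factor, differed by -1.55 without passing the test (adjusted p = 0.066, edgeR), and Ikzf1, which encodes Ikaros and was named after its values had been seen, by -0.10 (adjusted p = 0.43, edgeR).

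Of 16 other genes of lymphoid-primed progenitors, 14 were tested, with 4 lower, 2 higher and a median of -0.21. Ighm, the μ heavy chain constant gene, fell from 302, 431 and 194 CPM in Ctrl to 89.4, 121 and 70.4 CPM in cKO (-1.72, adjusted p = 0.00021, edgeR). Bex6 fell from 16.4, 22.1 and 21.8 CPM to 4.29, 7.05 and 4.35 CPM (-1.94, adjusted p = 2.2e-05, edgeR). Further calls were Jchain, the joining chain of secreted immunoglobulins (-2.80, adjusted p = 0.0044), and the higher Ctss, a lysosomal protease (0.33, adjusted p = 0.042), and Cyth4 (0.37, adjusted p = 0.029), all by edgeR and named after their values had been seen. Ctss was lost with the series as a covariate and without Ctrl replicate 1 or 3 or cKO replicate 1 or 2, and Cyth4 without Ctrl replicate 2 or 3 or cKO replicate 2 or 3. Of all 15 calls outside the 10 genes, 7 held in each of the 10 other settings, among them Bcl2, Adam17, Irf8, Jchain, Ighm and Bex6.

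Lists of LSK subset genes and of markers of other cell types were read beside these values. In the LSK list (8 genes, all tested), 2 were higher in cKO and none was lower. Procr, high in stem cells, was one of them (1.43, adjusted p = 0.00036, edgeR), and Cd48, absent from most stem cells, differed by -0.49 (adjusted p = 0.074, edgeR), while Slamf1 was at -0.01. Of the lineage antibody targets, 2 were lower, namely the T cell receptor constant genes Trbc1, at 6.66, 3.67 and 2.18 CPM in Ctrl and 0.067, 0.44 and 0 CPM in cKO, and Trdc, at 1.15, 1.05 and 0.77 CPM in Ctrl and 0, 0.13 and 0 CPM in cKO, and Itgam was higher (0.43, adjusted p = 0.019 by edgeR, lost without Ctrl replicate 1 or 2 or cKO replicate 1 or 2). Reads that align to both Trbc1 and its near-identical copy Trbc2 were left out, which can lower both counts. Cd4, Ly6c1 and Klrb1c were not past the test (0.81, -0.15 and 0.68).

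T cell markers (2 of 6 tested lower, Trbc1 and Themis, of 12) summed to 13.6 to 20.4 CPM in Ctrl and 13.2 to 18.2 CPM in cKO, with Cd8b1 at 0 throughout. In this sum Thy1, at 6.66, 7.48 and 6.91 CPM in Ctrl and 10.6, 7.94 and 12.4 CPM in cKO (0.55, adjusted p = 0.094, edgeR), and Cd4 stood against the lower Trbc1 and Themis. NK cell markers (2 of 5 tested lower, Nkg7 and Klrk1, of 9, the latter lost without Ctrl replicate 3) summed to 51.6 to 65.0 CPM in Ctrl and 26.6 to 35.5 CPM in cKO. For plasma cells (1 of 5 tested lower, Jchain, of 8) the sums were 83.2 to 97.1 CPM and 73.6 to 91.6 CPM, with Tnfrsf17 at 0.064 CPM or less. Most of both sums came from Xbp1, at 60.9 to 75.6 CPM over the 6 libraries. B cell markers (none of 2 tested called, of 10) summed to 17.0 to 22.2 CPM in Ctrl and 17.7 to 22.1 CPM in cKO, most of it from Cd79b, with Ms4a1 at 0.064 CPM or less. Plasmacytoid dendritic cell markers (1 of 7 tested higher, Irf7, of 11) summed to 279 to 341 CPM and 333 to 365 CPM, with Klk1 at 0 throughout. Neutrophil markers (2 of 3 tested lower, S100a8 and S100a9, of 8, both lost without Ctrl replicate 3 or any 1 cKO replicate) summed to 7.81 to 15.2 CPM and 5.54 to 8.44 CPM, with Camp at 0.064 CPM or less. Erythroid markers (none of 2 tested called, of 7) summed to 2.81 to 4.73 CPM and 4.02 to 6.03 CPM, with Slc4a1 at 0.064 CPM or less. The study reported, without showing the data, that LSK cells of both groups had a largely comparable composition at this time. It also reported lower Ighm by qRT-PCR in sorted lymphoid-primed multipotent progenitors of cKO mice, from 2 mouse pairs. The part of these cell types and subsets in the differences above was not tested here.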

How the data were processed

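RNA from sorted LSK cells of each mouse was made into stranded libraries. Reads were aligned by the authors with GSNAP to mm10 and counted per Ensembl gene on the strand of the gene with featureCounts (1.5.0), at a mapping quality of at least 1. The deposited values are these raw counts, 1 library per mouse, for 6 mice. Reads that align to several places were thus left out, which lowers the counts of near-identical genes. Gene symbols were taken from GENCODE M21 by identifier and named 98.8% of 45706 genes.

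From the counts, cKO was compared with Ctrl by the quasi-likelihood test of edgeR (4.0.16, R 4.3.3), with TMM normalization, the default filter on low counts (15184 genes left), genotype as the only term and Benjamini-Hochberg adjustment over all genes tested, at a threshold of 0.05. The SE is the absolute log2 fold change over the square root of F. CPM carry TMM factors, and log2 CPM a prior count of 2. In the count ratios, 0.5 was added to both counts before the log2. Each mouse is 1 replicate. The fit was tested on simulated data. Other settings were DESeq2 (1.42.0) as test, its size factors, no filter on low counts, the library series as a covariate, a threshold of 0.01, a prior count of 2 in the ratios, and each mouse left out in turn.

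The genes and lists were chosen with earlier results of these data known. Named in the text were the 10 genes, Setd1b, Polm, the 5 genes nearest to Dntt, the genes of the LSK and lineage lists, and in each other list up to 3 genes with the smallest p-values. Protein sequences were not used here. Some items are not reported here.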

Additional observations from a re-analysis of the deposited data

How the results depend on the processing

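Dntt was called lower in all 10 other settings of the fit (log2 fold change -6.17 to -5.36, adjusted p up to 5.6e-06), and its 5 ratios kept their direction in all settings tried. Satb1 and Ccr9 kept their direction and were not called in any. With no filter on low counts, 2 members were called higher (Blnk at 0.98 and Lsp1 at 0.24) and Rag2 lower (-0.66). DESeq2 called 1 higher (Blnk, 0.99), and the series as a covariate ended the call of Cd52 (-0.42). At an adjusted p under 0.01, 1 member remained lower, and 0 list genes were higher. With 1 mouse left out, lower calls of members ranged from 1 to 3 and higher from 0 to 1, lower list calls from 7 to 12 and higher from 0 to 5, and members with separate groups from 4 to 7. The log2 fold changes then ranged from -0.51 to 0.048 for Rag1 (0.038 without Ctrl replicate 2, 0.048 without cKO replicate 1), -1.77 to -1.16 for Il7r, -0.0053 to 0.26 for Notch1 (negative without Ctrl replicate 3), 0.62 to 1.33 for Blnk, 0.19 to 0.33 for Lsp1 and -0.54 to -0.38 for Cd52. The causes were not tested. Calls over all genes numbered 604 (without cKO replicate 2) to 1682 (no filter), against 1164. Depth was lowest for Ccr9 (3 to 34 reads per library) and Rag1 (27 to 86). No paired analysis was possible because the labels number no replicates and name no litters: the replicate numbers used here follow sample order and pair no mice.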

Other observations

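Ctrl replicate 3 was the lowest Ctrl library for 9 of the 10 genes, and Ctrl replicate 2 the highest for 8. Over all genes tested, Ctrl replicate 3 was the lowest of the 3 in 33.5%. Replicate 2 exceeded replicate 3 by 2.51-fold for Dntt and by 2.81-fold for both Il7r and Ccr9, but by 1.44-fold for Notch1. Genes of the lists outside the 10, named after their values had been seen, differed between these 2 Ctrl mice as well. Jchain had 8.34, 7.39 and 1.92 CPM in Ctrl replicates 1, 2 and 3, Ly6d, a surface marker of B cell commitment among lymphoid progenitors, 1.68, 3.67 and 0.38 CPM, and Ighm 302, 431 and 194 CPM. Both mice belong to the second library series. The spread is within 1 genotype and was not tested.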
